A study of Homo sapiens with 61 samples.

Results

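The response to vincristine, a drug that destabilises microtubules, was compared between 2 knockdown lines of human neurons, ATF2 gRNA and JUN gRNA. For every gene the test asked whether the log2 fold change with vincristine differed between the 2 lines. This comparison used 19 of the 61 libraries of the series and the 20759 of 58440 genes that passed a filter on low counts. A difference below 0 means that the response was lower in ATF2 gRNA than in JUN gRNA. Responses carry their sign, so a gene that responded less in a line may have risen less or fallen there. They are also ratios. A gene with a higher untreated level in ATF2 gRNA can respond less there and still gain as many counts as in JUN gRNA, or more. Genes were called at an adjusted p under 0.05 (edgeR quasi-likelihood test, adjusted by the method of Benjamini and Hochberg over all genes tested). Of the 873 genes that vincristine induced in neurons with a control guide, 124 responded less in ATF2 gRNA (background 1.92% of all genes tested). A lower response in JUN gRNA was called for 2 (background 0.91%), STC1 and KITLG. Of this pair, KITLG rose in neither line and fell in JUN gRNA. With vincristine, 41 of the 124 were lower in ATF2 gRNA than in JUN gRNA (background over all genes tested 18.7%), among them ATF3, HRK and DUSP16, and 61 were higher in ATF2 gRNA (background 14%), among them EGR1, GPR50 and TNFRSF12A. Before the drug, ATF3, HRK, EGR1, GPR50 and TNFRSF12A were all higher in ATF2 gRNA, and DUSP16 was lower.

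RNA was sequenced from neurons of WTC11, a well-known line of human induced pluripotent stem cells, that were differentiated by driving the transcription factor NGN2, and the labels call them "cortical". All cells of this experiment carried the machinery for CRISPR interference, in which an inactive Cas9 fused to a repressor is guided to a gene's start and silences it. The guide RNA (gRNA) came by lentivirus and was directed to ATF2 or to JUN, or had a scrambled sequence (Control gRNA). On day 14 the cultures received 5 nM vincristine or the vehicle DMSO, which is the group labelled untreated, and RNA was taken after 16 hours. The groups held 5 untreated and 4 vincristine libraries of ATF2 gRNA, 5 and 5 of JUN gRNA, and 5 and 5 of Control gRNA. No label says whether libraries of a group came from separate differentiations or transductions, so p-values measure the spread between these libraries only, which may be technical. A second experiment gave 16 further libraries, 4 untreated and 4 vincristine each of wild type (WT) cells and of cells lacking both DLK and LZK (double KO), with the same drug, dose and time.

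ATF2 and JUN are transcription factors of the bZIP class that bind DNA as dimers, with each other or with other members of the AP-1 and ATF families. Both are phosphorylated by the kinase JNK, which in injured neurons acts downstream of the kinases DLK and LZK. When axons or their microtubules are damaged this cascade carries a stress signal to the nucleus, where it can start programs of regeneration or of cell death. JUN is known to act on its own gene through AP-1-like sites to which JUN and ATF2 dimers bind.

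The libraries of this experiment held 38.9 to 88.4 M counts (M, 1e6), with a median of 53.5 M, and the 4 vincristine libraries of ATF2 gRNA held 41.2 to 44.1 M. Correlations between libraries of a group, on the log2 scale, were between 0.939 and 0.994 over 56 pairs, and the counts of each pair differed beyond sampling noise. Neuronal markers were present throughout, although TUBB3 was low at 5.51 to 21.1 CPM (counts per M counts of the scaled library), with MAP2 at 1430 to 2180 and DCX at 1000 to 1450 CPM. The 7 neuronal markers summed to 5261 to 5596 CPM untreated and 4939 to 5210 with vincristine in ATF2 gRNA. In JUN gRNA they summed to 6293 to 6677 and 5458 to 5736. Of these 7, 6 were lower and 1 higher in untreated ATF2 gRNA than in untreated JUN gRNA (backgrounds 18.2% and 16.5%). Vesicular glutamate transporters SLC17A6 and SLC17A7 summed to 455.1 to 500.4 and 480.7 to 492.9 in ATF2 gRNA. Their sums in JUN gRNA were lower, 348.2 to 366.5 and 355.6 to 393.4. NANOG and TDGF1 were at 0 in 25 and 28 of 29 libraries, and GFAP, SOX10, LUM and DCN in 24, 25, 19 and 18. Other members of those marker lists were present in every library, with LIN28A at 2.06 to 20.9, DPPA4 at 4.54 to 23.7, MBP at 5.19 to 20.1, SLC1A3 at 0.993 to 6.61 and OLIG2 at 0.0794 to 3.62 CPM. The 5 pluripotency markers summed to 30.8 to 40.2 CPM in ATF2 gRNA and to 14.2 to 20.1 in JUN gRNA, the 5 astrocyte markers to 6.16 to 8.42 and 2.36 to 5.37, and the 4 fibroblast markers to 1.19 to 2.36 and 0.277 to 1.24. The 6 markers of the oligodendrocyte lineage summed to 8.64 to 13.4 in ATF2 gRNA and to 9.16 to 14.7 in JUN gRNA. The part of these levels in the results was not tested. The 2 lines also differed in identity genes: the 3 GABAergic markers summed to 22.2 to 30.9 CPM over the ATF2 gRNA libraries and to 0.906 to 1.86 over those of JUN gRNA, and the 3 peripheral neuron markers, mainly POU4F1, to 188 to 236 and 325 to 448. In bulk samples, a change in the number of cells of a type and a change in RNA per cell cannot be told apart. Among the 5 vincristine libraries of JUN gRNA, replicate 5 was the lowest for 74 of the 124 induced genes whose response was lower in ATF2 gRNA (59.7%, against 26.4% of all genes tested), and without it 119 of the 124 were still called. Among the 4 of ATF2 gRNA, replicate 2 was the lowest for 61 of the 124 (49.2%, against 39% of all genes), and without it 101 were still called.

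The targeted genes were low in the lines that targeted them. ATF2 (ENSG00000115966.16, GRCh38 chromosome 2, 175072250 to 175168382) stood at 0.408, 0.877, 0.531, 0.707 and 0.106 CPM in untreated ATF2 gRNA and at 0.391, 0.282, 0.623 and 0.997 with vincristine, against 144 to 166 and 118 to 166 in JUN gRNA. JUN (ENSG00000177606.6, GRCh38 chromosome 1, 58780788 to 58784327) stood at 2.93, 2.73, 2.24, 2.98 and 3.47 CPM in untreated JUN gRNA and at 7.18, 6.89, 7.74, 5.92 and 4.40 with vincristine. In ATF2 gRNA, JUN stood at 19.6, 22.1, 18.2, 22.5 and 22.5 untreated and 18.9, 22.2, 17.1 and 23.8 with vincristine, against 81.7 to 97.8 and 223 to 255 in Control gRNA. The ATF2 gRNA line was therefore low in JUN transcript as well, with log2 differences of -2.08 untreated and -3.53 with vincristine relative to Control gRNA (both called). The JUN gRNA line kept ATF2 at levels that differed from Control gRNA by 0.25 ± 0.12 untreated (adjusted p 0.218, edgeR) and -0.04 ± 0.12 with vincristine (0.88, edgeR; log2, SE). JUN transcript rose with vincristine in JUN gRNA by 1.19 ± 0.13 from its reduced level and changed by -0.03 ± 0.11 in ATF2 gRNA, and the difference of -1.23 ± 0.17 was called. JUN was still higher in ATF2 gRNA than in JUN gRNA, by 2.89 ± 0.12 untreated and 1.66 ± 0.12 with vincristine (log2, SE, both called). The comparison is thus between cells low in ATF2 and partly low in JUN and cells lower still in JUN. These are transcript levels, not protein.

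The first comparison asks which genes responded differently in the 2 lines. The difference in response was called for 587 of 20759 genes (2.83%), lower in ATF2 gRNA for 398 (1.92%) and higher for 189 (0.91%). These shares are the background for the counts of called list members given later. Without ATF2 gRNA vincristine replicate 2, 506 were called, 287 lower and 219 higher. Induced genes, defined as called in Control gRNA with a log2 fold change of at least 1, were 873 (4.21% of the genes tested). Of these, 124 were called lower in ATF2 gRNA and 2 higher. The difference lay below 0 in 662 of the 873 (75.8%), against 55.7% of all genes tested. The median response of the induced genes was 1.72 in Control gRNA, 0.549 in JUN gRNA and 0.166 in ATF2 gRNA (log2). The same Control gRNA libraries chose these genes, so the gap between Control gRNA and the 2 knockdown lines is partly built in. In WT of the other experiment, the 629 of them tested there had a median response of 1.08. In ATF2 gRNA 81 of the 873 rose (background of 1.88% of all genes tested), and in JUN gRNA 299 rose (background 7.58%). Of the 172 genes lowered in Control gRNA (called, with a log2 fold change of -1 or less, 0.829%), 5 were called below 0 and 21 above 0. Among the called genes that were neither induced nor lowered to that extent, 269 lay below 0 and 166 above.

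**Figure D1:**
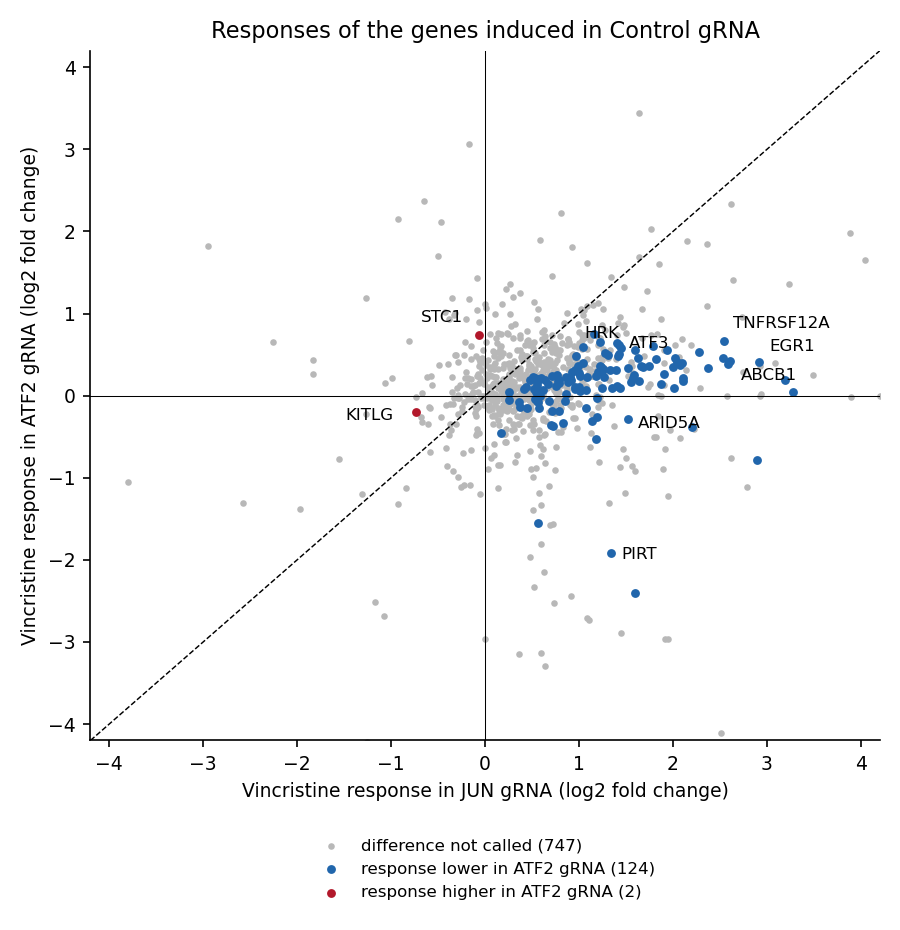
Vincristine response (log2 fold change) in JUN gRNA on the horizontal axis and in ATF2 gRNA on the vertical axis for the genes induced in Control gRNA; each point is 1 gene, the dashed line marks equal responses, and 18 of the 873 genes lie beyond the axes. The 124 blue genes lie below the dashed line and mostly near 0 in ATF2 gRNA, and the 2 red genes, STC1 and KITLG, lie above it.

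Among the 124 genes, the median response was 1.76 in Control gRNA, 1.15 in JUN gRNA and 0.192 in ATF2 gRNA, and the median difference was -0.91. In JUN gRNA 121 of them rose, and in ATF2 gRNA 34 rose and 3 fell. Relative to the response in Control gRNA, all 124 responded less in ATF2 gRNA (background 10.4%) and 88 responded less in JUN gRNA (background 7.06%). The 124 genes were chosen by their rise in Control gRNA and by the difference between these 2 lines, in the same libraries. The counts and medians of this paragraph therefore describe the choice and do not support it. The comparisons with Control gRNA also share its libraries.

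A smaller response can come with a higher level before the drug, with a lower level after it, or with both, so the levels of the 2 lines were compared within each treatment. In untreated cultures 90 of the 124 genes were higher in ATF2 gRNA (background 16.5%) and 23 were lower (background 18.2%). With vincristine 61 were higher (background 14%) and 41 lower (background 18.7%). Put together, 61 genes were higher in ATF2 gRNA under both treatments, 22 were higher untreated with no difference called with vincristine, 7 were higher untreated and lower with vincristine, 23 were lower under both, and 11 were lower with vincristine with no difference called untreated. The levels and the difference in response are computed from the same 19 libraries, so these classes describe the difference and do not support it. Against Control gRNA, the untreated level of the 124 genes had a median of 0.79 in ATF2 gRNA, where 75 were above (background 19.7%) and 33 below Control gRNA (background 20.2%). In untreated JUN gRNA the median was -0.21, with 20 above (background 5.78%) and 57 below (background 5.46%). With vincristine both lines were below Control gRNA, with medians of -0.93 in ATF2 gRNA and -1.05 in JUN gRNA.

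**Figure D2:**
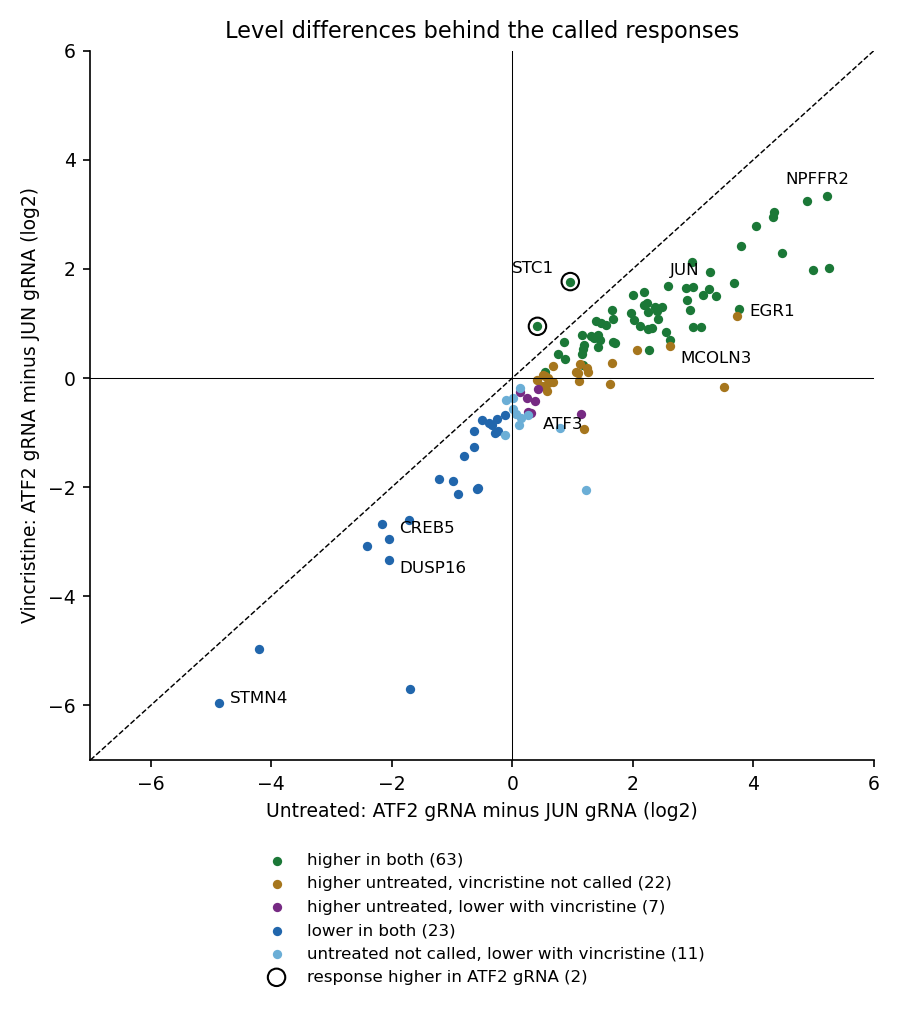
Level in ATF2 gRNA minus level in JUN gRNA (log2), untreated on the horizontal axis and with vincristine on the vertical axis, for the 126 induced genes called for the response difference; colours give the class of the 2 level differences, and the dashed line marks equal level differences. The 63 green genes were higher in ATF2 gRNA under both treatments, and the genes in purple and in both shades of blue were lower in it with vincristine; circles mark STC1 and KITLG.

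In the lists of JUN, FOS, ATF2 and CREB family genes, ATF3, CREB5, JUND and JUN were called for the difference, and all but JUN ended lower in ATF2 gRNA than in JUN gRNA after vincristine. ATF3 (ENSG00000162772.16, GRCh38 chromosome 1, 212565334 to 212620777) is a stress-induced bZIP factor that pairs with JUN. In ATF2 gRNA, ATF3 stood at 22.0, 28.1, 24.7, 27.3 and 24.9 CPM in the untreated libraries and at 40.1, 34.0, 33.8 and 33.9 with vincristine. The JUN gRNA libraries held 21.6, 20.7, 21.3, 21.3 and 18.0 untreated and 57.4, 53.6, 64.2, 54.3 and 44.9 with vincristine. The vincristine libraries of both lines lay above their untreated libraries. All ATF2 gRNA libraries lay above those of JUN gRNA untreated, with a level difference of 0.30 ± 0.07 (log2, SE, called), and below them with vincristine, with -0.63 ± 0.07. ATF3 rose by 0.48 ± 0.07 in ATF2 gRNA and by 1.42 ± 0.07 in JUN gRNA, a difference of -0.94 ± 0.10 (log2, SE), against a rise of 3.48 ± 0.07 in Control gRNA. CREB5, a bZIP factor closely related to ATF2, stood at 4.99 to 6.42 CPM untreated and 5.72 to 7.21 with vincristine in ATF2 gRNA. The JUN gRNA libraries held 18.5 to 25.0 and 42.6 to 61.9. Its libraries with vincristine overlapped the untreated ones in ATF2 gRNA and lay above them in JUN gRNA, with a difference in response of -0.91 ± 0.14. JUND, a JUN family member, differed by -0.63 ± 0.09 and was lower in ATF2 gRNA under both treatments, with level differences of -0.74 and -1.37.

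Of the 10 genes of the ATF2, CREB and small AP-1 list, 9 were tested and ATF3 and CREB5 responded less in ATF2 gRNA. The median difference of the list was -0.04, against -0.03 over all genes tested. Of the JUN and FOS families 5 of 7 were tested, JUN and JUND responded less in ATF2 gRNA, and the median difference was -0.63. FOS rose in both lines, by 0.84 ± 0.18 (ATF2 gRNA) and 1.46 ± 0.17 (JUN gRNA), and its difference of -0.62 ± 0.24 was not called (adjusted p 0.209, edgeR).

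MAP kinase phosphatases, which remove the activating phosphates from JNK, p38 and ERK, included 3 genes that responded less in ATF2 gRNA. DUSP16 is a phosphatase that acts on JNK. In ATF2 gRNA, DUSP16 stood at 9.46, 8.54, 9.19, 8.06 and 9.88 CPM in the untreated libraries and at 8.78, 12.9, 7.98 and 9.39 with vincristine. Levels in JUN gRNA were 37.4, 35.0, 37.3, 37.2 and 39.6 untreated and 101, 106, 102, 99.6 and 85.2 with vincristine. In ATF2 gRNA its vincristine libraries overlapped the untreated ones, and under both treatments all ATF2 gRNA libraries lay below all JUN gRNA libraries. DUSP16 rose by 1.41 ± 0.07 in JUN gRNA and changed by 0.12 ± 0.09 in ATF2 gRNA, a difference of -1.29 ± 0.11, and its level difference with vincristine was -3.34 ± 0.09 (log2, SE). DUSP8, also directed at JNK and p38, stood at 27.2 to 31.3 CPM untreated and 28.6 to 40.3 with vincristine in ATF2 gRNA, and at 111 to 143 and 208 to 243 in JUN gRNA. It was already low in ATF2 gRNA before the drug, with a level difference of -2.16, and its response differed by -0.51 ± 0.11. DUSP10 differed by -0.39 ± 0.09 and DUSP4 in the other direction by 0.19 ± 0.05. The remaining 6 of the 10 phosphatases tested were not called, and the median difference of the list was -0.23. Of the 11 genes of the DLK and JNK cascade, the JNK scaffold SPAG9 was called, with a difference of -0.32 ± 0.05. SPAG9 changed in opposite directions, by -0.16 ± 0.04 in ATF2 gRNA and by 0.17 ± 0.04 in JUN gRNA (both called). The other 10 were not called. LZK (gene MAP3K13), 1 of these 10, differed by -0.27 ± 0.09.

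Early response genes, which are switched on within minutes to hours by stimuli, mostly followed the other pattern, in which the untreated level was already high in ATF2 gRNA. EGR1 (ENSG00000120738.7, GRCh38 chromosome 5, 138465490 to 138469315) is a zinc finger transcription factor of this class. In ATF2 gRNA, EGR1 stood at 564, 535, 529, 522 and 528 CPM in the untreated libraries and at 673, 722, 706 and 751 with vincristine. In JUN gRNA it stood at 38.8, 40.4, 32.0, 39.6 and 46.7 untreated and at 316, 317, 330.1, 302 and 224 with vincristine. All ATF2 gRNA libraries lay above all JUN gRNA libraries under both treatments, and in each line vincristine and untreated libraries did not overlap. EGR1 rose by 2.92 ± 0.10 in JUN gRNA and by 0.41 ± 0.10 in ATF2 gRNA, a difference of -2.50 ± 0.14, while untreated Control gRNA held 11.4 to 16.3 CPM and Control gRNA with vincristine 119 to 142. JUN gRNA replicate 5 with vincristine, at 224 CPM, was the lowest of its group. NAB2, a corepressor of EGR proteins that is not on this list, differed by -1.44 ± 0.09 and was higher in ATF2 gRNA under both treatments. EGR2 differed by -1.89 ± 0.45, the synaptic early gene ARC by -1.63 ± 0.20, IER2 by -1.01 ± 0.08 and IER5 by -0.86 ± 0.10. All 4 were higher in untreated ATF2 gRNA, by 5.20, 3.16, 1.68 and 1.83. ARC and IER2 were induced in Control gRNA, while the change of EGR2 there, 1.66 ± 0.68, was not called. IER5 changed by -0.50 ± 0.07 in Control gRNA (called), by 0.85 ± 0.07 in JUN gRNA (called) and by -0.02 ± 0.07 in ATF2 gRNA. Of the 14 tested genes of this list, 6 responded less in ATF2 gRNA (background 1.92%) and 1 differed above 0 (background 0.91%). The latter was the nuclear receptor NR4A3 (0.48 ± 0.07), which fell by 0.61 ± 0.05 in JUN gRNA. In ATF2 gRNA its change of -0.13 ± 0.05 was not called. KLF10, the sixth gene that responded less, lost its call in 6 of 26 alternative analyses, with values of -0.59 to -0.43. The median difference of the list was -0.68, and 9 of the 14 were higher in untreated ATF2 gRNA.

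**Figure D3:**
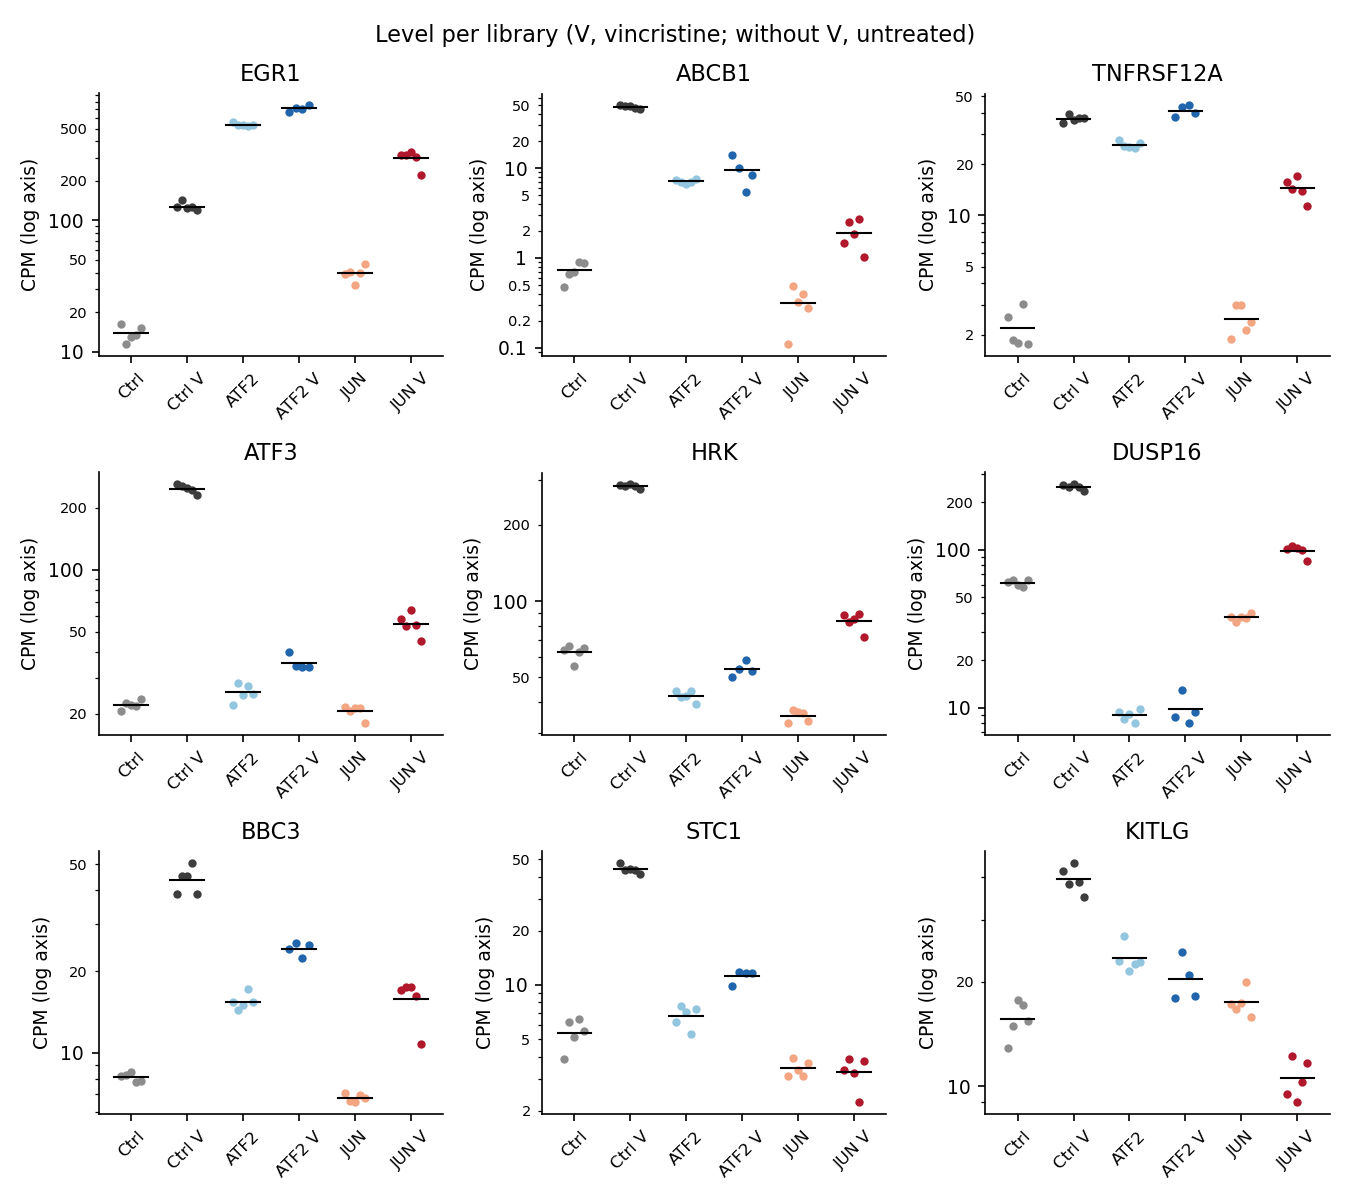
Level per library (CPM, log axes that differ between panels) of 9 genes in Control gRNA (Ctrl), ATF2 gRNA and JUN gRNA, untreated and with vincristine (V); points are libraries and lines the group means. EGR1, ABCB1 and TNFRSF12A were high in untreated ATF2 gRNA, DUSP16 was low in ATF2 gRNA under both treatments, and ATF3 and HRK ended lower in ATF2 gRNA than in JUN gRNA with vincristine.

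Genes of cell death fell into both classes. HRK (ENSG00000135116.9, GRCh38 chromosome 12, 116856144 to 116881441) encodes a BH3-only protein that promotes neuronal apoptosis. In ATF2 gRNA, HRK stood at 44.1, 41.7, 42.3, 44.3 and 39.2 CPM in the untreated libraries and at 50.2, 53.9, 58.3 and 53.0 with vincristine. The JUN gRNA libraries held 32.9, 37.3, 36.3, 36.3 and 33.5 untreated and 87.9, 82.6, 84.9, 88.5 and 71.8 with vincristine. Both lines rose without overlap. All libraries of ATF2 gRNA lay above those of JUN gRNA untreated, with a level difference of 0.26 ± 0.05 (called), and below them with vincristine, with -0.63 ± 0.06. The rise was 0.35 ± 0.06 in ATF2 gRNA, 1.24 ± 0.05 in JUN gRNA and 2.18 ± 0.05 in Control gRNA, and the 2 knockdown lines differed by -0.89 ± 0.08. BBC3, which encodes the BH3-only protein PUMA, had a different order of levels. In ATF2 gRNA, BBC3 stood at 15.4, 14.4, 15.0, 17.2 and 15.4 CPM in the untreated libraries and at 24.2, 25.4, 22.4 and 25.0 with vincristine. Levels in JUN gRNA were 7.07, 6.59, 6.54, 6.97 and 6.77 untreated and 17.0, 17.5, 17.5, 16.2 and 10.7 with vincristine. Its ATF2 gRNA libraries lay above those of JUN gRNA under both treatments, and its response differed by -0.57 ± 0.13 and was 0.65 ± 0.09 in ATF2 gRNA. Of the 16 BCL2 family genes tested these 2 were called, both below 0 (background 1.92%), and the median difference was -0.09. BCL2L11 (BIM) differed by -0.28 ± 0.13 and PMAIP1 (NOXA) by 0.09 ± 0.20, and neither was called.

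TNFRSF12A, GPR50, SSTR3 and NPFFR2, which encode receptors, were 4 of the 12 named genes with the lowest differences. TNFRSF12A, the receptor of the cytokine TWEAK, was the 1 gene called of 6 tested death receptors. In ATF2 gRNA, TNFRSF12A stood at 27.6, 25.7, 25.1, 24.8 and 26.7 CPM in the untreated libraries and at 37.8, 43.2, 44.2 and 39.8 with vincristine. In JUN gRNA it stood at 1.90, 2.97, 3.00, 2.13 and 2.38 untreated and at 15.6, 14.4, 17.0, 13.9 and 11.4 with vincristine. All ATF2 gRNA libraries lay above all JUN gRNA libraries under both treatments, and both lines rose without overlap. The rise was 0.67 ± 0.10 for ATF2 gRNA and 2.54 ± 0.12 for JUN gRNA, a difference of -1.88 ± 0.16. GPR50, an orphan receptor related to the melatonin receptors, stood at 768 to 804 CPM untreated and 1072 to 1138 with vincristine in ATF2 gRNA. In JUN gRNA it stood at 91.0 to 107 and 416 to 640.4, and in Control gRNA at 25.6 to 35.1 and 308 to 361. ATF2 gRNA without the drug thus held more GPR50 than Control gRNA with it, and the response differed by -2.07 ± 0.13. The somatostatin receptor SSTR3 differed by -1.93 ± 0.20 and the neuropeptide FF receptor NPFFR2 by -1.89 ± 0.31, both higher in ATF2 gRNA under both treatments. UNC5B, a netrin receptor, differed by -0.86 ± 0.10 in the same way. Relative to Control gRNA, the response of SSTR3 differed by -1.03 in ATF2 gRNA and by 0.89 in JUN gRNA (both called).

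Other genes of the lowest differences had mixed levels. ABCB1, the P-glycoprotein pump that exports vincristine, had the highest induction among the 12 (in Control gRNA from 0.478 to 0.909 to 45.8 to 49.8 CPM). In ATF2 gRNA, ABCB1 stood at 7.44, 6.97, 6.68, 6.96 and 7.48 CPM in the untreated libraries and at 14.1, 10.1, 5.38 and 8.32 with vincristine. The JUN gRNA libraries held 0.110, 0.492, 0.322, 0.393 and 0.278 untreated and 1.46, 2.54, 1.85, 2.70 and 1.03 with vincristine. The vincristine libraries overlapped the untreated ones in ATF2 gRNA and lay above them in JUN gRNA, and all ATF2 gRNA libraries lay above all JUN gRNA libraries. The response differed by -2.19 ± 0.37. MCOLN3, a lysosomal cation channel, stood at 2.93 to 4.76 CPM untreated and 4.36 to 6.09 with vincristine in ATF2 gRNA, at 0.376 to 0.917 and 2.09 to 4.97 in JUN gRNA, and differed by -2.03 ± 0.35. PIRT, a membrane protein that modulates sensory ion channels, stood at 0.384 to 1.84 CPM untreated and 0 to 0.544 with vincristine in ATF2 gRNA, and at 0.208 to 0.441 and 0.418 to 1.58 in JUN gRNA. All 4 sets of PIRT libraries overlapped, 2 of its ATF2 gRNA vincristine libraries were at 0, and its difference of -3.26 ± 0.76 lost its call when Control gRNA was left out of the fit (-3.28). The stress protein NIBAN1 differed by -1.92 ± 0.23, the RNA-binding regulator ARID5A by -1.81 ± 0.31 and C11orf96 by -1.75 ± 0.19. ARID5A rose by 1.52 ± 0.21 in JUN gRNA, changed by -0.29 ± 0.22 in ATF2 gRNA and ended lower there with vincristine, with a level difference of -0.66 ± 0.22. GADD45B, a stress gene at under 1.5 CPM in both lines, differed by -1.73 ± 0.47, but its call was lost in 11 of 26 alternatives, 8 of which left out a single library, with values down to -1.05.

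Among genes lower in ATF2 gRNA with vincristine, 4 more are named after their values were seen. THBS2, a secreted matrix protein, stood at 1.08 to 2.54 CPM with vincristine in ATF2 gRNA and 5.72 to 7.33 in JUN gRNA, against 1.21 to 2.72 and 2.58 to 3.69 untreated. It rose by 1.14 ± 0.15 in JUN gRNA and changed by -0.31 ± 0.20 in ATF2 gRNA, and the difference was -1.45 ± 0.25. HEG1, a membrane protein of cell junctions, had untreated levels that overlapped, 28.3 to 30.5 CPM in ATF2 gRNA and 26.4 to 31.8 in JUN gRNA. With vincristine it stood at 24.2 to 31.2 in ATF2 gRNA and 40.3 to 43.7 in JUN gRNA, a difference in response of -0.57 ± 0.08. The junction protein PKP4 differed by -0.50 ± 0.06 and the helicase HELZ2 by -1.45 ± 0.14, and both rose in JUN gRNA and were not called in ATF2 gRNA.

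Promoter sequences are shown for 5 of these genes because their windows hold sites of the AP-1 and ATF type and because, JUN apart, each ended lower in ATF2 gRNA with vincristine. The genes were chosen after the values and the matches were seen. RefSeq sequences of build GRCh38.p14 were matched by symbol for 13220 of the 20759 genes tested and 585 of the 873 induced. Each line gives the 250 bases before the annotated start, 5′ to 3′ on the gene's strand, with the matched sites in capitals.
JUN (GRCh38.p14, chr1:58784048-58784297, minus strand): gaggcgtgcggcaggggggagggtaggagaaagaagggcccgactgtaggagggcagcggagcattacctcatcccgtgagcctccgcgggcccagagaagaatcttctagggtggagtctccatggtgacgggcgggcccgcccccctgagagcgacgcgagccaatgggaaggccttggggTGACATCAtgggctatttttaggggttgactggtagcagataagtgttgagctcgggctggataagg
ATF3 (GRCh38.p14, chr1:212565157-212565406, plus strand): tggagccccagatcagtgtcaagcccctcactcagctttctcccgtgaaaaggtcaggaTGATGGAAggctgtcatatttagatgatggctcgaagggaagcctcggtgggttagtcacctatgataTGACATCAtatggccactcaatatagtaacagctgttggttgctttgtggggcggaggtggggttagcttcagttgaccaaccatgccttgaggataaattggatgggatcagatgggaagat
HRK (GRCh38.p14, chr12:116881442-116881691, minus strand): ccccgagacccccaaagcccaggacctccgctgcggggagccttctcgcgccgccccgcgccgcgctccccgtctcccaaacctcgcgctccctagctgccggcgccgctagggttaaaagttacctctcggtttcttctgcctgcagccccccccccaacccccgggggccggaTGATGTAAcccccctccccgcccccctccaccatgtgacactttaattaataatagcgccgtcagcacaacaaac
DUSP8 (GRCh38.p14, chr11:1572272-1572521, minus strand): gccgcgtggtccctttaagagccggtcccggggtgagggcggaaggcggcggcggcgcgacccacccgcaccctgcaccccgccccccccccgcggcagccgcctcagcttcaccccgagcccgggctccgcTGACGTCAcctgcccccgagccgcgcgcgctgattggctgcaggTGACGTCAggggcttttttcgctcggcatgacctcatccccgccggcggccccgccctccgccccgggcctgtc
THBS2 (GRCh38.p14, chr6:169253847-169254096, minus strand): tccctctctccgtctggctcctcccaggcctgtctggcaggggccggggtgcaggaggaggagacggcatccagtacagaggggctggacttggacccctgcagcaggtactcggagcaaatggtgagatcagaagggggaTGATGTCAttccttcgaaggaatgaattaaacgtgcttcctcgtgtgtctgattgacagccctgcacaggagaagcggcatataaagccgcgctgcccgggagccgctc
The capitals are TGACATCA, an AP-1-like sequence, in JUN and ATF3 and, on the opposite strand as TGATGTCA, in THBS2. They are TGATGGAA in ATF3 and TGATGTAA in HRK for the pattern TGATGNAA, a composite of C/EBP and ATF sites. In DUSP8 they are 2 copies of TGACGTCA, the cyclic AMP response element (CRE). The first base of the site lay 67 bases before the start in JUN, 191 and 123 in ATF3, 75 in HRK, 118 and 74 in DUSP8, and 109 in THBS2. No site of the patterns searched lay in the windows of EGR1, ABCB1, GPR50 or DUSP16.

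Over 300 bases, 250 before and 50 after the start, on both strands, TGACATCA was present in 7 of 85 matched promoters of the 124 genes (8.24%), in 3.25% of induced and 1.59% of all genes tested. The pattern TGANTCA was present in 9.41% of the 85, 10.6% of induced and 4.73% of all genes. Its N was matched to any base, so it takes in AP-1 sites (C or G at N) and other sequences. TGACGTCA was present in 4.71%, 3.42% and 3.12%, and TGATGNAA in 2.35%, 4.62% and 1.91%. By level with vincristine, a split added after values were seen, TGACGTCA was in 4 of 24 promoters of genes that ended lower in ATF2 gRNA and in 0 of 45 of genes that ended higher, and TGACATCA was in 4 of 24 and 1 of 45. TGATGNAA was in 2 of 24 and 0 of 45, and the pattern TGANTCA ran the other way, in 1 of 24 (4.17%) and 5 of 45 (11.1%). BBC3, DDIT3 and ATF5, which ended higher in ATF2 gRNA, hold AP-1 sites 113, 241 and 188 bases before the start. KITLG was the 1 matched gene of the pair with a higher response in ATF2 gRNA and held none of the 4. Neighbouring matches can share end bases, and a match in letters is no measurement of binding.

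The integrated stress response, in which translation control raises the factor ATF4 and its target genes, split by gene. DDIT3, which encodes the bZIP factor CHOP, stood at 106 to 130.4 CPM untreated and 162 to 172 with vincristine in ATF2 gRNA. Levels in JUN gRNA were 21.8 to 26.1 and 53.9 to 78.7, so all ATF2 gRNA libraries lay above all JUN gRNA libraries. The response differed by -1.04 ± 0.09. The bZIP factor ATF5 differed by -0.91 ± 0.09 and the pseudokinase TRIB3 by -0.41 ± 0.09, again with higher levels in ATF2 gRNA under both treatments. ATF4 itself differed in the other direction, by 0.20 ± 0.05, a difference in transcript. These were 3 genes lower (background 1.92%) and 1 higher (background 0.91%) of 11 tested, with a median difference of -0.08. Genes of amino acid transport and synthesis, many of them known ATF4 targets, gave 5 called of 15, each with a difference above 0 (background 0.91%). The median difference of the list was 0.17. PSAT1, an enzyme of serine synthesis, stood at 65.5 to 69.9 CPM untreated and 85.7 to 98.1 with vincristine in ATF2 gRNA, and at 59.3 to 70.3 and 62.2 to 76.3 in JUN gRNA. It rose by 0.44 ± 0.06 in ATF2 gRNA without overlap and changed by 0.07 ± 0.06 in JUN gRNA. Relative to Control gRNA, its response differed by -0.36 in JUN gRNA (called) and by 0.02 in ATF2 gRNA (not called). In Control gRNA, PSAT1, SLC6A9, MTHFD2 and SLC1A4 rose by 0.42, 0.45, 0.42 and 0.51, below the cutoff for induced genes. PYCR1, of proline synthesis, differed by 0.47 ± 0.09 and the glycine transporter SLC6A9 by 0.45 ± 0.11. MTHFD2 and SLC1A4 differed by 0.29 ± 0.08 and 0.27 ± 0.08, and lost their calls in 5 and 8 of 26 alternatives, 4 and 7 of them with a single library left out. In ATF2 gRNA 13 of the 15 rose with vincristine (background 1.88%), in JUN gRNA 8 (background 7.58%), and in Control gRNA 14 (background 17.1%). The cystine transporter SLC7A11, at 50.3 ± 5.81 CPM in ATF2 gRNA and 48.4 ± 11.1 in JUN gRNA with vincristine (SD, n = 4 and 5), differed by 0.40 ± 0.21 and was not called.

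The reverse pattern, an induced gene whose response was lower in JUN gRNA, was called for STC1 and KITLG. Relative to Control gRNA, both also responded less in ATF2 gRNA, by -2.28 and -1.54 (log2, called). The pair depends on the cutoff for induced genes, and more genes were called when any called rise in Control gRNA counted as induced. STC1 (ENSG00000159167.11) encodes the secreted hormone stanniocalcin 1. In ATF2 gRNA, STC1 stood at 6.22, 7.64, 7.08, 5.37 and 7.31 CPM in the untreated libraries and at 9.84, 11.8, 11.7 and 11.6 with vincristine. Levels in JUN gRNA were 3.14, 3.94, 3.38, 3.13 and 3.67 untreated and 3.38, 3.88, 3.22, 2.23 and 3.76 with vincristine. Its vincristine libraries lay above the untreated ones in ATF2 gRNA and overlapped them in JUN gRNA, while Control gRNA rose from 3.86 to 6.45 to 41.3 to 47.4 CPM. It rose by 0.74 ± 0.12 in ATF2 gRNA, changed by -0.07 ± 0.13 in JUN gRNA and rose by 3.02 ± 0.12 in Control gRNA, and the difference between the lines was 0.81 ± 0.18. KITLG (ENSG00000049130.15) encodes the ligand of the receptor KIT. In ATF2 gRNA, KITLG stood at 22.9, 27.1, 21.5, 22.5 and 22.7 CPM in the untreated libraries and at 17.9, 24.3, 20.9 and 18.1 with vincristine. In JUN gRNA it stood at 17.3, 16.7, 17.3, 20.0 and 15.9 untreated and at 9.49, 12.2, 9.00, 10.3 and 11.7 with vincristine. Its libraries overlapped in ATF2 gRNA and did not in JUN gRNA, where it fell by 0.73 ± 0.09, whereas in Control gRNA it rose by 1.34 ± 0.09. The difference of 0.53 ± 0.13 lost its call when ATF2 gRNA replicate 3 with vincristine was left out (0.45). Both genes stood below Control gRNA with vincristine in each knockdown line, STC1 with level differences of -1.97 (ATF2 gRNA) and -3.74 (JUN gRNA), and KITLG of -0.96 and -1.91 (log2).

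The 5 lowered genes called below 0 were tubulins, the subunits of microtubules. Cells are known to degrade tubulin messenger RNA when free tubulin rises. TUBA1A, an alpha tubulin of neurons, stood at 3103, 2822, 2898, 2969 and 2931 CPM untreated and 677, 583, 612 and 638 with vincristine in ATF2 gRNA. The JUN gRNA libraries held 6422, 6326, 6659.9, 6275 and 6355 and 2221, 1948, 2068, 1688 and 2128. The groups did not overlap in any of the 4 comparisons, and TUBA1A was lower in ATF2 gRNA under both treatments. It fell by 2.23 ± 0.05 in ATF2 gRNA, and its response was -1.67 ± 0.05 in JUN gRNA and -1.78 ± 0.05 in Control gRNA, with a difference of -0.56 ± 0.07. TUBB2B differed by -0.46 ± 0.07 and TUBB by -0.37 ± 0.06. TUBB4A and TUBA1B differed by -0.36 ± 0.10 and -0.28 ± 0.08, but lost their calls in 16 and 18 of 26 alternatives, 13 and 14 of them with a single library left out. Tubulin genes resemble each other, so reads that fit several of them are uncertain. STMN4, a tubulin-binding stathmin, was induced in Control gRNA and differed by -1.09 ± 0.12, with level differences of -4.86 untreated and -5.95 with vincristine. Of the 14 genes of this list 6 responded lower in ATF2 gRNA (background 1.92%), and the median difference was -0.14.

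Of the lowered genes called above 0, all 21 fell in JUN gRNA (background 8.31%) and 8 in ATF2 gRNA (background 4.22%). The same libraries chose these 21 genes, so the counts are a description. NRP1, a receptor of semaphorin 3A and VEGF, stood at 80.8, 84.8, 82.0, 81.6 and 78.0 CPM untreated and 77.2, 86.8, 77.7 and 81.6 with vincristine in ATF2 gRNA. Levels in JUN gRNA were 63.2, 67.0, 54.3, 67.5 and 65.5 and 34.8, 36.5, 36.2, 34.8 and 29.0. The groups overlapped in ATF2 gRNA and not in JUN gRNA, where NRP1 changed by -0.89 ± 0.06, and the difference was 0.88 ± 0.08. CCDC85A differed by 0.65 ± 0.15, the guidance ligand SLIT3 by 0.63 ± 0.10 and the NMDA receptor subunit GRIN3A by 0.59 ± 0.13. Of 22 axon guidance genes, 4 responded higher (background 0.91%) and 2 lower (background 1.92%) in ATF2 gRNA, and the median difference was 0.14. Of these, EPHA4 (-0.19 ± 0.05) and EPHB1 (0.31 ± 0.09) lost their calls in 12 and 11 of 26 alternatives, 9 and 11 of them with a single library left out, and SEMA3D (1.36 ± 0.36) lost its call when replicate 2 of ATF2 gRNA with vincristine (0.97) or replicate 3 of JUN gRNA with vincristine (1.24) was left out.

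Cholesterol synthesis genes fell together in Control gRNA, where all 10 of the list were called lower (background 18.1%). In JUN gRNA 9 of them fell (background 8.31%) and in ATF2 gRNA 7 (background 4.22%). In the comparison of the 2 lines 5 of the 10 were called, each above 0 (background 0.91%). Among them were SQLE (0.27 ± 0.06) and FDFT1 (0.26 ± 0.06), enzymes of the later steps of the pathway, and IDI1 (0.26 ± 0.07), an isomerase of its isoprenoid steps. All 3 fell in JUN gRNA, by 0.51 ± 0.04, 0.58 ± 0.04 and 0.43 ± 0.05. In ATF2 gRNA SQLE and FDFT1 fell by 0.24 ± 0.05 and 0.32 ± 0.05, and the change of IDI1, -0.16 ± 0.05, was not called. IDI1 lost its call for the difference in 9 of 26 alternatives, 7 of them with a single library left out. The median difference of the 10 was 0.24.

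**Figure D4:**
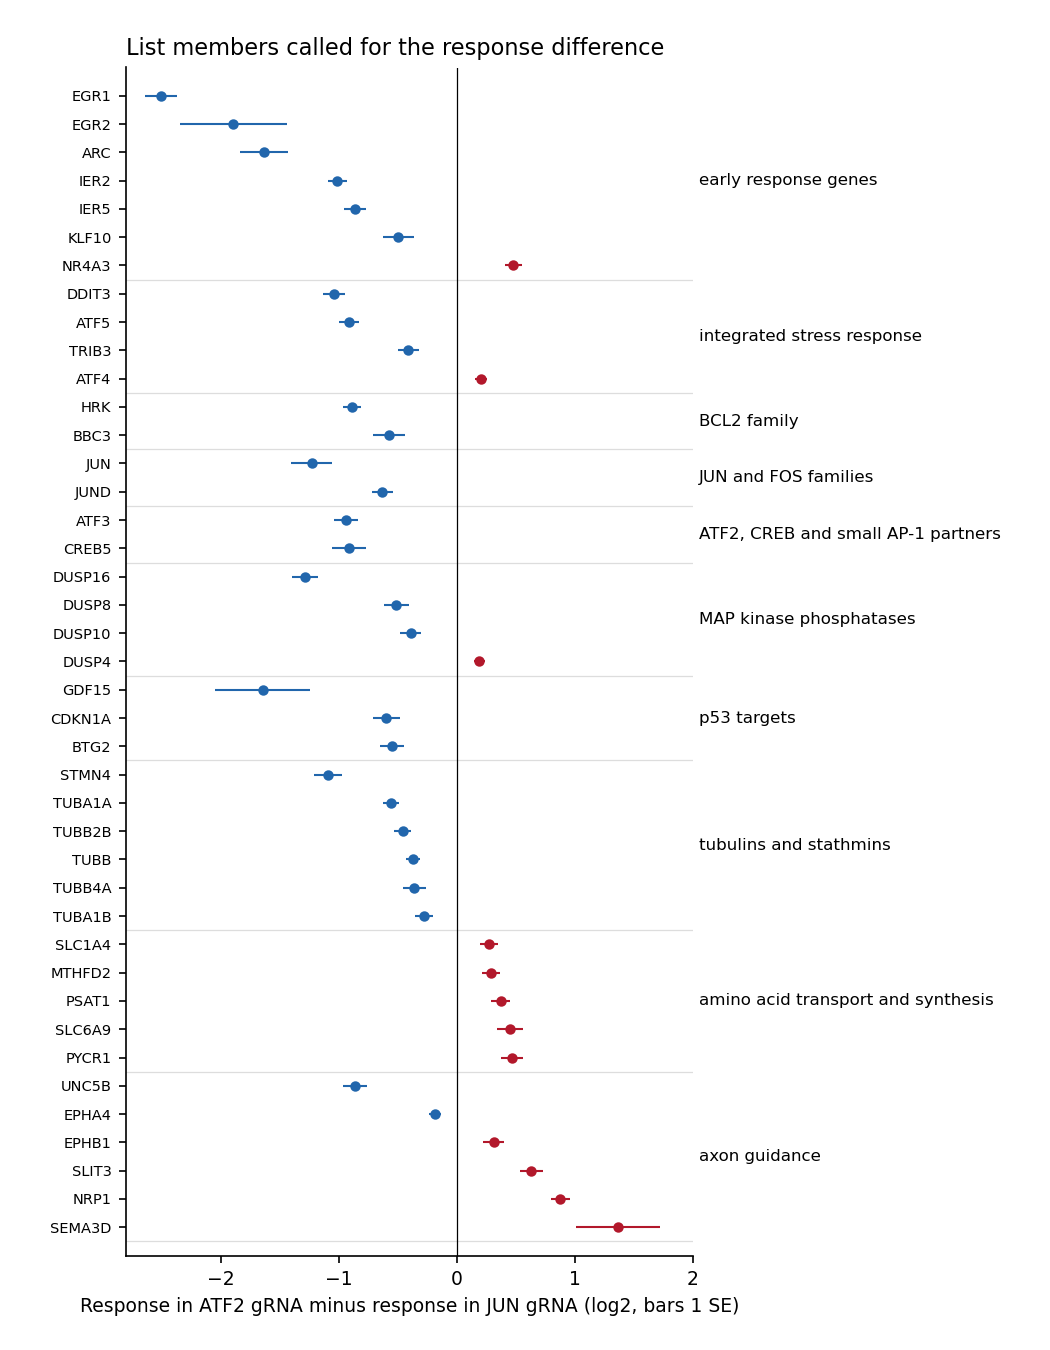
Response in ATF2 gRNA minus response in JUN gRNA (log2, bars 1 SE) of the members of 10 gene lists that were called, grouped by list; blue points lie below 0 and red points above. The early response, BCL2, p53 and tubulin genes called lie mostly below 0, and the amino acid genes called lie above 0.

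Among p53 targets 3 of 11 were called, all below 0 (background 1.92%), and the median difference of the list was -0.06. They were the secreted factor GDF15 (-1.64 ± 0.40), the cell cycle inhibitor CDKN1A (-0.60 ± 0.11) and BTG2 (-0.55 ± 0.10). GDF15 lost its call with Control gRNA left out of the fit (-1.63). CDKN1A was higher in ATF2 gRNA under both treatments and BTG2 lower under both. Of 10 tested axon regeneration genes, SOX4 was called below 0 (-0.29 ± 0.04) and STAT3 above 0 (0.28 ± 0.06). Of 10 synaptic vesicle genes, the calcium sensor SYT1 was called (0.33 ± 0.06). The intermediate filament gene NES, also a marker of neural progenitors, rose in JUN gRNA by 0.73 ± 0.03 and changed by -0.06 ± 0.04 in ATF2 gRNA, a difference of -0.78 ± 0.05. NES made up most of the progenitor marker list, whose sum was 965 to 1088 CPM untreated and 1669 to 1775 with vincristine in JUN gRNA, and 763 to 838 and 729 to 838 in ATF2 gRNA. Of its 5 markers NES alone was called for the difference, and the part of these and of the other markers in the results was not tested. The astrocyte marker AQP4, at 0 to 0.676 CPM over the libraries, was also called, on too few counts for a fold change. The neuronal marker NEFL was called above 0 (0.12 ± 0.04) and lost this call in 12 of 26 alternatives, 9 of them with a single library left out.

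Among called genes neither induced nor lowered, SOWAHA (-1.62 ± 0.35) and the sodium channel SCN7A (-1.57 ± 0.22) were, with EGR2 and NAB2, the 4 lowest. All 4 rose in JUN gRNA, and among them NAB2 was called in ATF2 gRNA, at 0.37 ± 0.06. Relative to Control gRNA, NAB2 and SCN7A responded more in JUN gRNA, by 0.97 and 0.72 (both called). Their responses in ATF2 gRNA differed from Control gRNA by -0.46 and -0.84 (both called). For EGR2 and SOWAHA neither difference from Control gRNA was called. SAMD3 (1.44 ± 0.32), SEMA3D, the exchange factor DOCK5 (1.17 ± 0.21) and PCOLCE2 (1.10 ± 0.26) were the 4 highest. In JUN gRNA these 4 fell, and in ATF2 gRNA DOCK5 rose by 0.49 ± 0.15 and the other 3 were not called. Of the 269 genes in this class with a difference below 0, 194 rose and 5 fell in JUN gRNA (backgrounds 7.58% and 8.31%), and 28 rose and 67 fell in ATF2 gRNA (backgrounds 1.88% and 4.22%). Of the 166 above 0, 143 fell in JUN gRNA, and 22 rose and 17 fell in ATF2 gRNA. The same fits chose these genes, so the counts are a description.

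For 747 induced genes no difference between the lines was called, which does not show that they responded alike. The 4 with the smallest standard error among those induced by at least 2 on the log2 scale were VIM, SLFN5, WEE1 and GADD45A. The difference was -0.16 for VIM (95% confidence interval -0.37 to 0.05), an intermediate filament gene that rose in both lines, by 0.41 ± 0.07 (ATF2 gRNA) and 0.57 ± 0.07 (JUN gRNA). It was -0.22 for SLFN5 (-0.48 to 0.04) and -0.43 for the mitotic kinase WEE1 (-0.80 to -0.07, adjusted p 0.249, edgeR). For GADD45A it was -0.32 (-0.51 to -0.13, adjusted p 0.0536, edgeR), and 5 of 26 alternatives called it.

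The last comparison asks how the same genes behaved in the other experiment, whose libraries had no part in choosing them. Of the 124 genes whose response was lower in ATF2 gRNA, 118 were tested there. In WT neurons 114 of them rose with vincristine (96.6%, against a background of 15.7%). In double KO 102 of the 118 responded less than in WT (86.4%, background 10.2%). Of the 509 tested induced genes with no difference called between ATF2 gRNA and JUN gRNA, 67.2% rose in WT and 46.8% responded less in double KO. The difference between these shares was not tested. The 2 sets also differ otherwise: only 509 of 747 such genes were tested there, and their median WT response was 0.98, against 1.66 in the 118. The response in double KO differed from WT by -2.71 ± 0.24 for HRK, -3.60 ± 0.27 for ATF3, -1.89 ± 0.27 for DUSP16 and -3.96 ± 0.28 for EGR1 (log2, SE, all called). STC1 differed by -2.94 ± 0.21 and was called, while KITLG was called neither in WT (-0.34 ± 0.16) nor for the difference (0.43 ± 0.21). Among the 21 lowered genes with a difference above 0, 20 were called higher in double KO than in WT (background 9.21%). Of the 5 tubulins, TUBA1A was 0.26 ± 0.14 and not called, and 1 was called higher and 1 lower.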

How the data were processed

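Poly(A) RNA was sequenced from 61 libraries, of which this account uses 19 for the comparison, the 10 of Control gRNA and 16 of the other experiment. The deposited tables hold whole-number counts of reads per gene, not normalized. The submitters' processing notes name cutadapt 3.4, STAR, featureCounts and Subread 2.0.1 with build GRCh38. The strand setting, and whether duplicates were counted, are not given in the sources used here, so overlapping and antisense genes cannot be told apart. No vincristine replicate 1 of ATF2 gRNA was analysed here.

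Counts were fitted with edgeR 4.0.16 (R 4.3.3), with genes filtered by group, TMM factors and 6 groups (29 libraries) in 1 quasi-likelihood model, robust, adjusted over 20759 genes. The other experiment was fitted separately over 18235 genes. The script was tested on simulated data. CPM levels use TMM-scaled library sizes. Induced genes had an adjusted p under 0.05 and a log2 fold change of at least 1 in Control gRNA. Depth was 38.9 to 88.4 M counts (M, 1e6), and 8.4 to 14.6 M in the other experiment.

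The members and gene lists were chosen with earlier results of these data known. Named were ATF2 and JUN, and, with a mean log2 CPM of at least 1, the 12 lowest and up to 8 highest induced genes called, the 4 lowest and 4 highest among lowered and among other genes, called list members, and 4 induced genes not called. Genes named after their values were seen are marked, and some called genes are not reported here. Alternatives were DESeq2 1.42.0, limma 3.58.1 (voom), RLE factors, other filters, other definitions of induced genes, fewer groups, the replicate number as a block, and each library left out. Same-numbered libraries did not deviate together.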

Additional observations from a re-analysis of the deposited data

Results flagged for a closer look

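In 10 of 92 pairs of a gene and a group, over 23 genes, 1 library stood apart from the others, where chance gives about 1 in 20. JUN gRNA vincristine replicate 5 was low for EGR1 (224 CPM), BBC3 (10.7 CPM) and NRP1 (29 CPM), and ATF2 gRNA vincristine replicate 2 was high for ATF3 (40.1 CPM) and low for STC1 (9.84 CPM). ATF3 was low in JUN gRNA untreated replicate 5 (18 CPM). In ATF2 gRNA, untreated replicate 1 was high for PIRT (1.84 CPM) and DDIT3 (130 CPM), untreated replicate 2 was high for KITLG (27.1 CPM), and vincristine replicate 3 was high for DDIT3 (172 CPM).

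The response to vincristine differed between the 2 lines, by the test of the difference itself, for 587 genes. On the log2 scale, ATF2 gRNA minus JUN gRNA, the differences were -3.26 for PIRT, -2.50 for EGR1, -2.19 for ABCB1, -2.07 for GPR50, -2.03 for MCOLN3 and -1.88 for TNFRSF12A. They were -1.45 for HELZ2 and for THBS2, -1.29 for DUSP16, -1.23 for JUN, -1.04 for DDIT3, -0.94 for ATF3, -0.91 for CREB5 and -0.89 for HRK. Smaller differences were -0.57 for BBC3 and for HEG1, -0.56 for TUBA1A and -0.51 for DUSP8. Differences above 0 were 0.88 for NRP1, 0.81 for STC1, 0.53 for KITLG and 0.37 for PSAT1.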

How the results depend on the processing

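The count of 587 genes lay between 463 and 643 with single libraries left out, and that of 124 induced genes between 109 and 135. The 2 induced genes with a higher response in ATF2 gRNA became 2 to 3. DESeq2 called 809 genes (581 shared), limma voom 658 (491 shared), RLE factors 560, no filter on low counts 573, a mean of at least 1 CPM 626, and a fit of only the groups compared 435 (420 shared). Adding a fold change of at least 1.5 left 188 genes, and 1 induced gene that responded more in ATF2 gRNA. Without the filter on low counts that last count was 4. With induced genes defined by a log2 fold change above 0 the induced counts were 262 lower and 17 higher, and above 2 they were 49 and 1. A wider set can only give equal or larger counts. The 17 include genes with a smaller rise in Control gRNA than the main definition asks. The named genes that were called kept their sign in the alternatives run, while PMAIP1, which was not called, ranged from -0.03 to 0.17 and ATF2 from -0.19 to 0.45. Leaving out single libraries gave 6687 to 6968 calls between untreated lines, 6299 to 6543 with vincristine, 902 to 1219 in ATF2 gRNA, 2881 to 3275 in JUN gRNA, 6756 to 7139 in Control gRNA, 3797 to 4614 and 2867 to 3426 for the differences from Control gRNA of ATF2 gRNA and JUN gRNA, and 100 to 104 of the genes in double KO.

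With the replicate number as a block 503 genes were called, 490 of them shared, and 119 induced genes were lower. Deviations of same-numbered libraries correlated by between -0.0301 and 0.0465, and 1 of 4, 3 of 5, 1 of 5 and 0 of 4 libraries correlated best with their own number over the pairs of groups, so the numbers do not pair the samples. Genes at a few CPM, such as PIRT and GADD45B, have wide errors at this depth.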

Other observations

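Among the other induced genes whose response was lower in ATF2 gRNA, 4 are given here, chosen after their values were seen. The desmosomal protein PPL differed by -1.37, the keratin KRT8 by -1.30 and the matrix glycoprotein TNC by -1.25 (log2). All 3 were higher in ATF2 gRNA than in JUN gRNA under both treatments, with untreated differences of 4.33, 4.35 and 4.04. TXNIP, a regulator of thioredoxin, differed by -1.16, was higher in untreated ATF2 gRNA by 1.11 and differed by -0.04 with vincristine, which was not called.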
